A study of Rattus norvegicus with 24 samples.

Results

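The muscle miRNAs miR-1, miR-133 and miR-206 were followed through small RNA libraries of rat brain. Of the 1098 miRNAs in the deposited table, 5 belong to this set, namely rno-miR-1b, rno-miR-1-3p, rno-miR-206-3p, rno-miR-133a-3p and rno-miR-133b-3p. They were listed by name, and the list was chosen with earlier results of the same counts known, being selected on the difference of miR-206-3p between HT and NC in the PVN, which had there one of the smallest p-values. For that reason the PVN contrasts that share the NC or HT libraries are described below without a test, and the remaining comparisons are tested.

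The libraries came from the paraventricular nucleus of the hypothalamus (PVN), where the neurons that drive the stress hormone axis lie, and from the central amygdala (CEA). Male Sprague-Dawley rats, 7 weeks old when bought, formed 4 groups with 3 libraries per nucleus, 24 libraries in all. NC rats had no operation, HT rats lost about 20% of the left liver lobe under isoflurane, HT + EA rats also had electroacupuncture for 30 min at the Zusanli and Sanyinjiao points before and straight after the operation, and HT + SEA rats had the needles without current. All groups, NC included, were restrained awake for the same time, and the nuclei were dissected 24 h after treatment ended. NC rats thus lacked anaesthesia, incision and resection together, which cannot be told apart here. The 4 groups held 12 rats. According to the methods of the study, tissue of a single rat was limited and the brain samples came from different animals of the same batch, and which libraries share an animal is not given. The p-values below therefore measure the spread between libraries, and those between the nuclei take the libraries as separate samples.

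MicroRNAs are short RNAs that guide silencing complexes to messenger RNAs through their seed, the bases near the 5′ end. The miR-1 and miR-133 families are known from heart and skeletal muscle, where MEF2, SRF and MyoD drive their genes and where they shape the differentiation and growth of muscle cells. One miR-1 gene lies beside a miR-133 gene and miR-206 lies beside miR-133b, so that members of both families can be made from a shared transcript. Outside muscle, miR-206 is known to target Bdnf, the gene of a neurotrophin, and miR-133b has been studied in midbrain dopamine neurons.

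The mature sequences show why the 5 form a pair of families, and how little separates their members. They are given 5′ to 3′ from RefSeq (assembly GRCr8, 5 of 5 members matched by name), with the seed, bases 2 to 8, in capitals.
rno-miR-1b: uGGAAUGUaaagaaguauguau
rno-miR-1-3p: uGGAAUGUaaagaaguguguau
rno-miR-206-3p: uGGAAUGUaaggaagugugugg
rno-miR-133a-3p: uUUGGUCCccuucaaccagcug
rno-miR-133b-3p: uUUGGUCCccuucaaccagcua

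The seed GGAAUGU was shared by miR-1b, miR-1-3p and miR-206-3p, and UUGGUCC by miR-133a-3p and miR-133b-3p. Among the 637 miRNAs of the table with a RefSeq mature sequence, no other miRNA had either seed. Counted from the 5′ end, miR-1-3p differs from miR-1b by A17G only, miR-206-3p differs from miR-1b by A11G, A17G, A21G and U22G, and miR-133b-3p differs from miR-133a-3p by G22A at the last base. All 5 are 22 bases long. Whether miRNAs of different sequence were captured equally well in the libraries was not tested.

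On GRCr8, the mature miR-1b lies at chr3:187864736-187864757 on the plus strand, with no spanning gene in the annotation and its hairpin gene 527753 bases from the nearest miRNA gene, Mir124-3. Mature miR-1-3p lies at chr18:2160339-2160360 and miR-133a-3p at chr18:2157886-2157907, both on the minus strand, their hairpin genes 2369 bases apart and within the protein-coding gene Mib1. Mature miR-206-3p lies at chr9:30590747-30590768 and miR-133b-3p at chr9:30594629-30594650, both on the plus strand, their hairpin genes 3802 bases apart and within the long noncoding RNA LOC120094648.

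The deposited table also lists a pair of miRNAs from the opposite strand, shown here because their counts copy those of members. The capitals mark bases that are the reverse complement of the member named.
rno-miR-133c, against miR-133a-3p: CAGCUGGUUGAAGGGGACCAA
rno-miR-3571, against miR-1-3p: UACACACUUCUUUACAUUCCAua

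The counts of miR-133c equalled those of miR-133a-3p in 24 of 24 libraries, and those of miR-3571 equalled miR-1-3p in 22 of 24 with a largest difference of 1 count. With 21 complementary bases of 21 and of 23, each pair is 1 measurement in this table, and reads of the opposite strands cannot be told apart. Values are therefore given once, under the name of the member.

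The 12 PVN libraries held 6584345 to 14828269 counts and the 12 CEA libraries 9463321 to 14913564. Depth was lower in PVN NC, at 6584345 to 10668808, than in the needled PVN groups, at 12134529 to 14828269. Levels are given as CPM, the counts of a miRNA divided by the library's total count and multiplied by 1000000. Neuronal miRNAs (miR-124-3p, miR-9a-5p, miR-128-3p and miR-138-5p, 4 of 4 in the table) summed to between 102997 and 162609 CPM in every library. The sum of miR-7a-5p, miR-7b and miR-375-3p, known from neuroendocrine cells, was 134902 to 170631 CPM in the PVN and 24828 to 54290 in the CEA, so that the nuclei did not overlap.

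All 5 members were counted in all 24 libraries, at levels that differed widely. The highest was miR-1b, with a mean of 309.8 CPM and 1894 to 6490 counts per library, rank 159 of 1098. It was followed by miR-206-3p at 21.8 CPM (94 to 971 counts), miR-133a-3p at 8.64 CPM (55 to 185 counts), miR-1-3p at 3.88 CPM (22 to 71 counts) and miR-133b-3p at 1.06 CPM (4 to 25 counts). Together they took 0.022% to 0.0674% of a library, and miR-1b alone made up 89.8% of their counts. The sum was highest in PVN NC replicate 1.

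The large gap inside a family was that between miR-1b and miR-1-3p, which differ by a single base. The ratio of miR-1b to miR-1-3p had a median of 78.8, from 32.0 in PVN HT replicate 1 to 138 in PVN NC replicate 1. How reads that match several miRNAs were assigned is not given in the sources used here, and its part in this ratio was not tested. For the neighbours miR-206-3p and miR-133b-3p the ratio had a median of 20.6 and ran from 4.7 in PVN HT replicate 3 to 46.2 in PVN NC replicate 2.

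The spread between replicates set how finely each could be read. Within groups the coefficient of variation of miR-1b was 23.2%, against 1.69% from counting alone. For miR-206-3p it was 36.0% against 6.82%, for miR-133a-3p 27.1% against 10.1%, and for miR-1-3p 31.4% against 15.0%. For miR-133b-3p, the least counted, it was 43.1% against 28.8%. Depth was thus a small part of the spread of miR-1b and miR-206-3p and a large part of that of miR-133b-3p, whose lowest library held 4 counts.

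**Figure D1:**
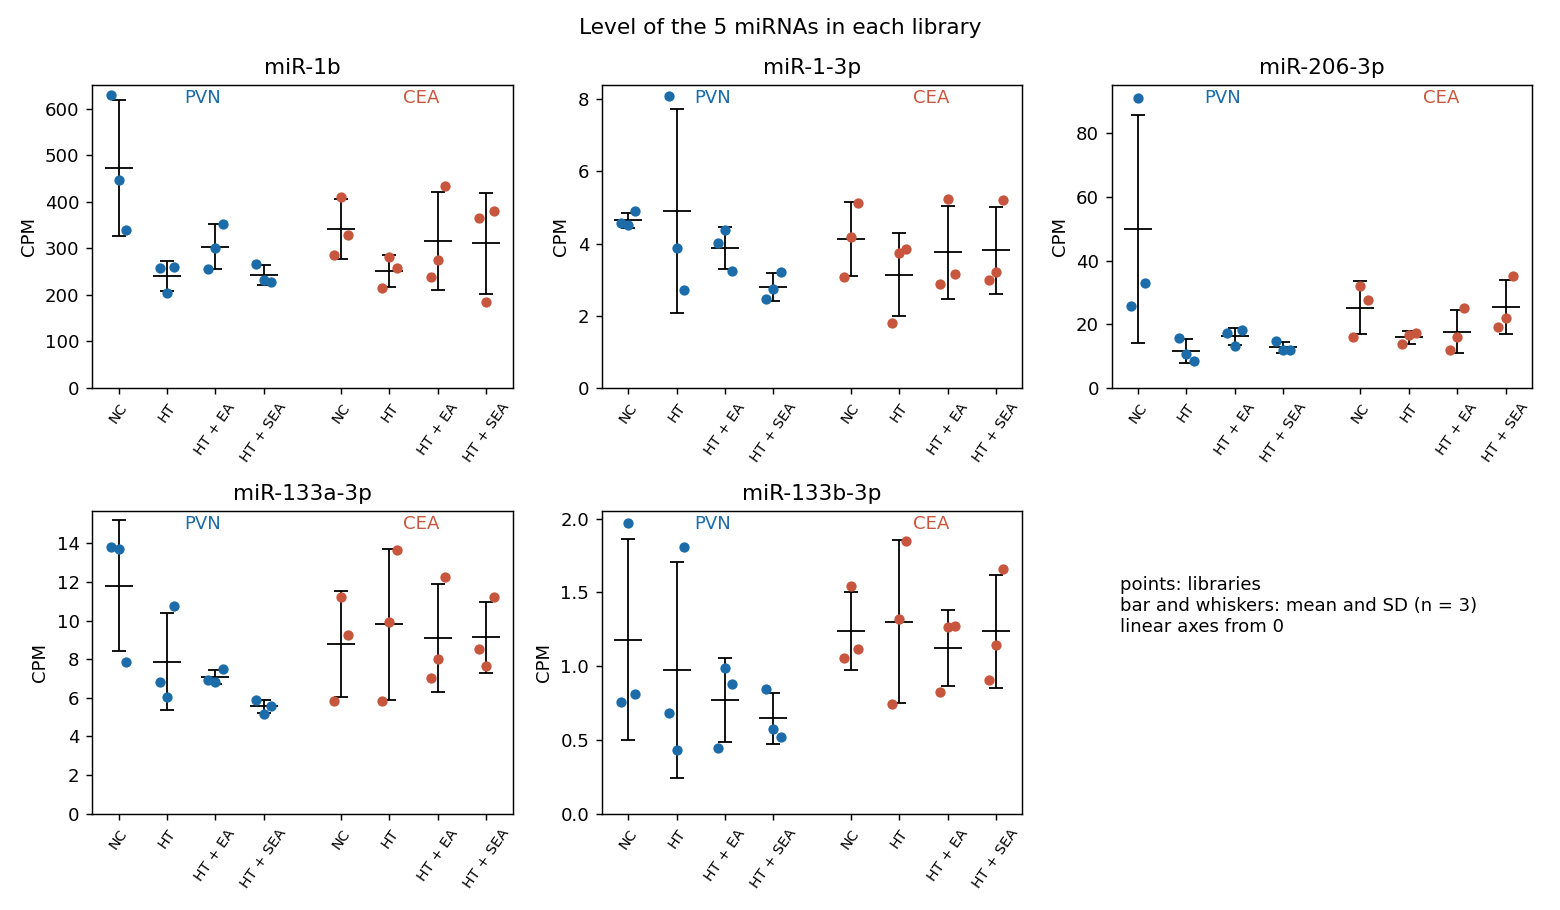
Level of each of the 5 miRNAs (CPM, linear axis from 0) in the 24 libraries by nucleus and treatment, with points for libraries and bars for the mean and SD of 3. For miR-206-3p, PVN NC replicate 2 lies at 91.0 CPM, above every other library, and for miR-1b the highest library is PVN NC replicate 1 at 629.5 CPM.

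In the PVN, miR-206-3p was at 25.7, 91.0 and 32.9 CPM in the 3 NC libraries and at 15.7, 10.6 and 8.51 in the HT libraries. All NC libraries were above all HT libraries, and replicate 2 stood far above the remaining NC libraries. The level was 17.2, 13.3 and 18.1 CPM in the HT + EA libraries and 14.7, 11.8 and 11.8 in the HT + SEA libraries, all below NC.

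Abundant miR-1b followed a like order in the PVN. It was at 629.5, 446 and 341 CPM in the NC libraries, 258.5, 204 and 259.9 in HT, 255.9, 301.5 and 353 in HT + EA, and 267, 232 and 229 in HT + SEA. NC lay above HT and above HT + SEA without overlap, and overlapped with HT + EA.

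The remaining members were less uniform in the PVN. The level of miR-133a-3p, known to restrain SRF in muscle, was 13.8, 13.7 and 7.88 CPM in NC, 6.83, 6.04 and 10.8 in HT, 6.91, 6.84 and 7.49 in HT + EA, and 5.90, 5.18 and 5.58 in HT + SEA. In HT it overlapped with NC through replicate 3 of HT, while both needled groups lay below NC. For miR-1-3p the NC libraries were at 4.56, 4.50 and 4.89 CPM and the HT libraries at 8.08, 3.88 and 2.71, so that HT replicate 1 was the highest of all 24 libraries. That library also held the highest level of miR-122-5p, known from liver, at 12.4 CPM against 0.473 to 2.45 in the other 23 libraries, and the part of this in the miR-1-3p value was not tested. For miR-133b-3p the NC libraries were at 0.759, 1.97 and 0.815 CPM and the HT libraries at 0.683, 0.431 and 1.81, with broad overlap.

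As a description with no test, the log2 fold change of HT against NC in the PVN was -2.17 for miR-206-3p (SE 0.476), -1.03 for miR-1b (SE 0.191), -0.64 for miR-133a-3p (SE 0.224), -0.35 for miR-133b-3p (SE 0.539) and 0.01 for miR-1-3p (SE 0.289). Without PVN NC replicate 2 the value of miR-206-3p was -1.38 and that of miR-133b-3p turned to 0.28, and without PVN HT replicate 3 miR-133b-3p stood at -1.13. The value of miR-1-3p was -0.57 without PVN HT replicate 1 and 0.36 without PVN HT replicate 3. The median over the 5 members was -0.64, beside 0.0 over all 1053 miRNAs fitted. HT lay wholly below NC for 2 of the 5, as it did for 4.46% of all miRNAs. Because earlier results of this contrast were known when the members were chosen, nothing is read from this count.

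Against HT, the HT + EA group of the PVN showed log2 differences of 0.35 for miR-1b (SE 0.189), 0.51 for miR-206-3p (SE 0.472), -0.31 for miR-1-3p (SE 0.281), -0.14 for miR-133a-3p (SE 0.223) and -0.34 for miR-133b-3p (SE 0.538). None of the 5 had non-overlapping groups, where 14.7% of all miRNAs did. The HT + SEA group differed from HT by 0.05 for miR-1b (SE 0.189), 0.18 for miR-206-3p (SE 0.475), -0.75 for miR-1-3p (SE 0.288), -0.47 for miR-133a-3p (SE 0.226) and -0.57 for miR-133b-3p (SE 0.547). Only miR-133a-3p did not overlap there, against 9.78% of all miRNAs. These contrasts share the HT libraries with HT against NC and with each other, and several values turned on 1 library. Without HT replicate 1, miR-1-3p was at 0.28 under HT + EA and -0.19 under HT + SEA, and miR-206-3p at 0.81 and 0.46. Without HT replicate 3, the HT + EA values were 0.29 for miR-206-3p, 0.13 for miR-133a-3p and 0.45 for miR-133b-3p, and the HT + SEA values were -0.06, -0.23 and 0.19 for the same members. The small HT + SEA value of miR-1b turned to -0.08 without HT replicate 2 and to -0.02 without HT + SEA replicate 1.

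Set against NC in the PVN, both needled groups had differences below 0 for all 5 members, again as a description. For HT + EA against NC the log2 differences were -1.66 for miR-206-3p (SE 0.458), -0.78 for miR-133a-3p (SE 0.221), -0.70 for miR-133b-3p (SE 0.537), -0.68 for miR-1b (SE 0.19) and -0.30 for miR-1-3p (SE 0.286). For HT + SEA against NC they were -1.98 for miR-206-3p (SE 0.465), -1.10 for miR-133a-3p (SE 0.225), -0.98 for miR-1b (SE 0.191), -0.93 for miR-133b-3p (SE 0.546) and -0.74 for miR-1-3p (SE 0.292). Groups did not overlap for 3 of 5 members in the first contrast, where 14.1% of all miRNAs did not overlap, and for 4 of 5 in the second, where 8.55% did not. The members counted lay below NC, while the shares of all miRNAs count either direction. Both contrasts use the PVN NC libraries, in view when the members were chosen, so nothing is read from these counts. Without NC replicate 2, miR-206-3p was at -0.88 under HT + EA and -1.22 under HT + SEA, and miR-133b-3p at -0.06 and -0.31. Under HT + EA, miR-1b was at -0.40 without NC replicate 1, and miR-1-3p at -0.17 without HT + EA replicate 3 and miR-133b-3p at -0.41 without HT + EA replicate 1.

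Some marker miRNAs of other cell types and tissues also differed between the PVN NC and HT libraries, and their part in the values above was not tested. The sums of the neuronal and neuroendocrine miRNAs named above overlapped between NC and HT, as did that of the vessel list given below. Beside the members stood miR-10b-5p, made in a Hox cluster and known from hindbrain and spinal cord, at 343, 43.8 and 195.9 CPM in NC and 36.9, 28.03 and 45.1 in HT, and miR-223-3p, known from myeloid cells, at 22.3, 89.0 and 81.2 CPM in NC, 1.02 to 1.54 in HT, 8.98 to 11.9 in HT + EA and 1.49 to 11.1 in HT + SEA. The myeloid list (miR-223-3p, miR-142-3p, miR-142-5p and miR-155-5p, 4 of 4 in the table, none at 0) summed to 100.8 to 189 CPM in NC, 79.9 to 92.8 in HT, 89.3 to 98.7 in HT + EA and 87.1 to 106 in HT + SEA. Of this list miR-142-5p (42.1 against 41.3 CPM) and miR-155-5p (6.47 against 4.92) had higher means in HT than in NC. Of the same list miR-142-3p overlapped, at 28.9 to 51.3 CPM in NC and 35.3 to 38.4 in HT. The epithelial list (the miR-200 family, miR-203a-3p and miR-205, 7 of 7) summed to 58.9 to 109 CPM in NC, 38.1 to 46.4 in HT, 61.4 to 111.5 in HT + EA and 64.3 to 71.1 in HT + SEA, with miR-200a-3p at 41.5 CPM in PVN NC replicate 2, the library highest in miR-206-3p, and at 6.23 and 9.10 in the other NC libraries. The list of Hox cluster miRNAs (4 of 4) summed to 91.0 to 459.9 CPM in NC, 76.6 to 98.5 in HT, 203 to 255.5 in HT + EA and 75.0 to 204 in HT + SEA. The red-cell list (miR-451-5p, miR-144-3p, miR-144-5p and miR-486, 4 of 4, none at 0) summed to 269.7 to 335.5 CPM in NC, 228.5 to 243.9 in HT, 227.5 to 323 in HT + EA and 252.8 to 297 in HT + SEA, so that NC lay above HT without overlap. Of this list miR-451-5p and miR-486 had lower means in HT than in NC. The means of miR-144-3p (13.95 against 13.6 CPM) and miR-144-5p (9.3 against 8.99) were slightly higher in HT. In bulk tissue, fewer cells of a type and less RNA per cell cannot be told apart.

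The summed level of further striated-muscle miRNAs overlapped between NC and HT in the PVN. Of 11 listed, 7 are in the table, and their sum was 376 to 414 CPM in PVN NC and 403 to 427 in PVN HT. It was carried by miR-499-5p, made from an intron of a myosin gene, at 300.4 ± 13.3 CPM (SD, n = 3) in PVN NC and 334 ± 7.34 in PVN HT, and by miR-486, which red cells also make, at 98.1 ± 13.5 and 78.4 ± 4.75. These carriers went opposite ways, each without overlap, miR-499-5p lying above NC in all HT libraries and miR-486 below. The heart miRNAs miR-208a-3p, miR-208a-5p and miR-208b-3p, with miR-133a-5p and miR-499-3p, were at or near 0, with at most 0.911 CPM in any PVN NC library.

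**Figure D2:**
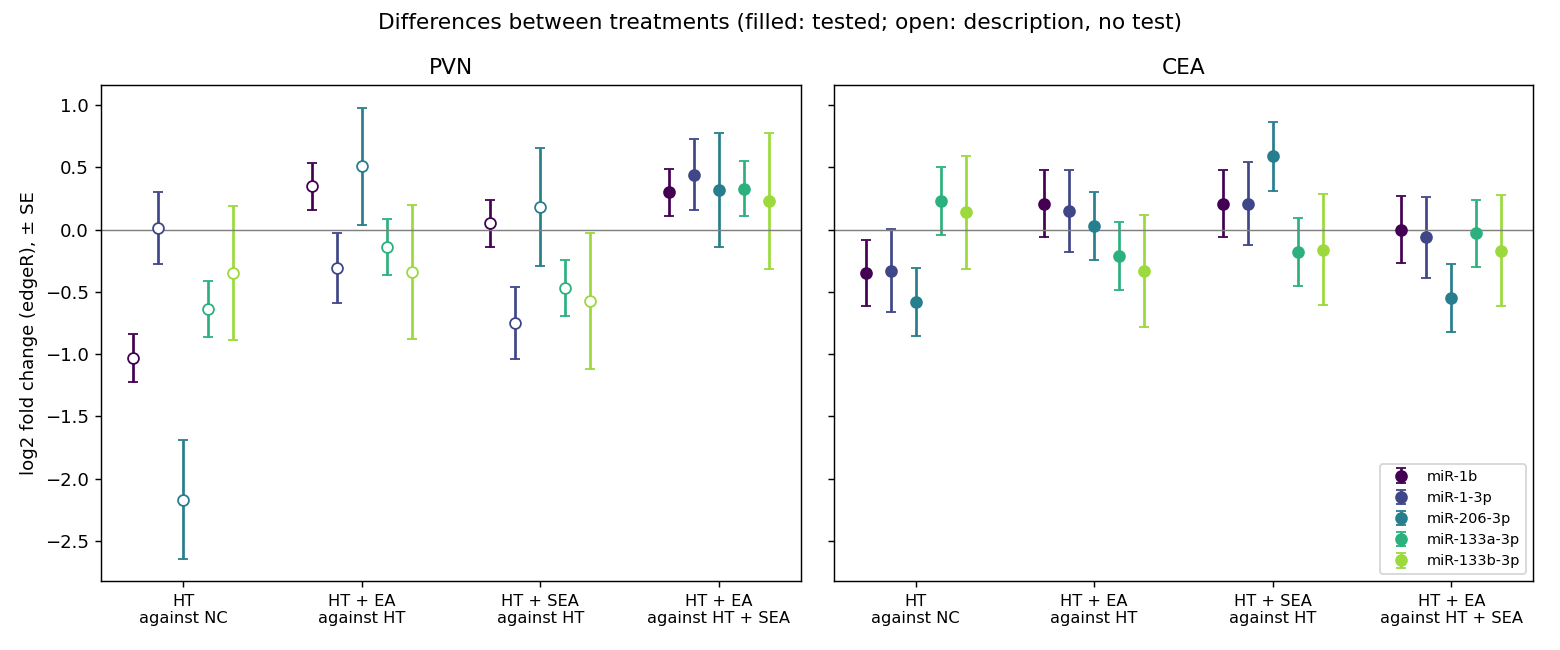
Log2 fold change with its SE for the 5 miRNAs in 4 contrasts of the PVN (left) and the CEA (right), with filled points for tested contrasts and open points for those given as a description. The lowest point is miR-206-3p for HT against NC in the PVN at -2.17, and in the CEA every value lies between -0.58 and 0.59.

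In the CEA, whose libraries were not part of the earlier result on miR-206-3p, the same question was put to the test. After HT, miR-206-3p was at 13.7, 16.7 and 17.2 CPM against 16.1, 31.95 and 27.7 in NC. The groups overlapped through NC replicate 1. Its log2 fold change was -0.58 (SE 0.276, Benjamini-Hochberg adjusted p = 0.985 by edgeR's quasi-likelihood test), past an unadjusted threshold of 0.05 and not past the adjusted one. When single CEA libraries were left out the fold change ran from -0.84 to -0.41, and the unadjusted threshold was missed in 6 of 12 such fits, as it was with DESeq2 and after edgeR's filterByExpr filter. With the replicate number as a block, miR-206-3p stood at -0.53, past the unadjusted threshold and with an adjusted p of 1.0 by edgeR.

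Levels of miR-1b in the CEA were 285.5, 411 and 328 CPM in NC and 215, 282 and 257 in HT. All HT libraries were below all NC libraries, the only member for which the groups of this contrast did not overlap, where 5.26% of all miRNAs did not. Its log2 fold change of -0.35 (SE 0.267, adjusted p = 0.985 in edgeR's test) was not past either threshold. With the block it was again -0.35 and passed the unadjusted one (adjusted p = 1.0 by edgeR), and 6 of all miRNAs, no member among them, passed the adjusted one, in a fit with 6 residual and infinite prior degrees of freedom. Marker miRNAs differed here as well, and their part was not tested. The level of miR-223-3p was 1.27, 10.7 and 10.8 CPM in NC and 0.886 to 0.912 in HT, without overlap. NC replicate 1 held 12 counts of it, beside 9 to 12 in the HT libraries. The myeloid list it belongs to overlapped, at 96.5 to 134 CPM in NC and 57.8 to 103 in HT. Of that list miR-142-3p and miR-142-5p had lower means in HT, and miR-155-5p a higher one (3.91 against 3.32 CPM). The level of miR-10b-5p was 26.95, 201 and 176.6 CPM in NC and 13.5, 55.1 and 59.8 in HT. NC replicate 1 was the lowest NC library of miR-223-3p, miR-10b-5p, miR-206-3p and miR-1b. The values of miR-1-3p, -0.33 (SE 0.333), miR-133a-3p, 0.23 (SE 0.273), and miR-133b-3p, 0.14 (SE 0.455), were no larger than their SE. By edgeR, 0 of the 5 members passed the adjusted threshold of 0.05 and 1 the unadjusted one, where 0.0% and 2.63% of the 1064 miRNAs did, and DESeq2 gave 0 and 0 members and 0 and 9 of all miRNAs.

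The needled groups of the CEA were set against HT in the same way. Under HT + EA, miR-206-3p was at 11.96, 16.04 and 25.1 CPM and miR-1b at 238, 274 and 435 CPM, with overlap with HT for all 5 members, where 8.83% of all miRNAs did not overlap. Log2 fold changes of the 5 members lay between -0.33 for miR-133b-3p (SE 0.449) and 0.21 for miR-1b (SE 0.267). By edgeR none passed the adjusted or the unadjusted threshold, where 0.0% and 4.04% of all miRNAs did, and none did with DESeq2, which gave 0 and 26 of all miRNAs.

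Under HT + SEA, miR-206-3p was at 19.3, 22.02 and 35.0 CPM in the CEA, above all 3 HT libraries. It was the only member whose groups did not overlap in this contrast, where 6.02% of all miRNAs did not. The epithelial list also lay higher without overlap, at 49.7 to 53.5 CPM in HT + SEA and 24.1 to 41.8 in HT. So did miR-223-3p, at 19.0, 1.38 and 1.74 CPM in HT + SEA and 0.886 to 0.912 in HT. The myeloid list it belongs to overlapped, at 97.4 to 121 CPM and 57.8 to 103. In the HT + EA group, too, the epithelial list (48.2 to 53.9 CPM) and miR-223-3p (1.24, 12.5 and 10.5) lay above HT without overlap. The part of these markers in the difference was not tested. The log2 fold change of miR-206-3p was 0.59 (SE 0.276, adjusted p = 0.926 in edgeR's test), it was 0.29 without HT + SEA replicate 3, and the remaining 4 members lay between -0.18 and 0.21. No member passed the adjusted threshold, where 0.0% of all miRNAs did, and miR-206-3p alone passed the unadjusted one, where 3.38% did. That pass was lost in 6 of the 12 leave-one-out fits. With DESeq2, with its size factors in edgeR, or after the filterByExpr filter, no member passed the unadjusted threshold. DESeq2 gave 0 and 27 of all miRNAs at the adjusted and the unadjusted one.

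Between HT + EA and HT + SEA in the CEA, miR-206-3p differed by -0.55 (SE 0.274, adjusted p = 1.0 in edgeR's test). The groups of every member overlapped, where 4.61% of all miRNAs did not. Replicate 3 was the highest library in both groups, at 25.1 and 35.0 CPM. Without HT + SEA replicate 3 the difference of miR-206-3p was -0.28, and without HT + EA replicate 3 it was -0.90. The other 4 members differed by -0.17 to 0.00. No member passed the adjusted or the unadjusted threshold, where 0.0% and 1.32% of all miRNAs did by edgeR, and 0 and 4 miRNAs by DESeq2, and miR-206-3p passed the unadjusted one in 6 of the 12 fits without 1 library.

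When the needled groups of the PVN were compared, all 5 differences, HT + EA against HT + SEA, were above 0, and none passed a threshold. The log2 fold changes were 0.44 for miR-1-3p (SE 0.285), 0.33 for miR-133a-3p (SE 0.224), 0.32 for miR-206-3p (SE 0.461), 0.30 for miR-1b (SE 0.189) and 0.23 for miR-133b-3p (SE 0.544), with adjusted p of 0.96 or more in edgeR's test. Their median was 0.32 beside -0.02 over all miRNAs, and 0.095% of miRNAs had an adjusted and 3.23% an unadjusted p under 0.05. DESeq2 called no member at either threshold, and 1 and 27 of all miRNAs, while miR-1b passed the unadjusted threshold in 7 of the 12 fits without 1 library. The value of miR-133b-3p was 0.04 without HT + EA replicate 2 and 0.53 without HT + EA replicate 1.

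Groups did not overlap there for miR-133a-3p, at 6.84 to 7.49 CPM under HT + EA and 5.18 to 5.90 under HT + SEA, or for miR-1-3p, at 3.24, 4.01 and 4.37 CPM against 2.45, 2.73 and 3.20. That is 2 of 5 members, where 10.6% of all miRNAs did not overlap. Of the marker miRNAs, miR-145-5p was higher under HT + EA without overlap, at 316 to 369.7 CPM and 280.5 to 290.5 under HT + SEA, while the vessel list it belongs to summed to 28802 to 30498 and 30003 to 31568. Of the epithelial list miR-205 was at 3.64 to 3.79 and 0.72 to 2.83 CPM, with list sums of 61.4 to 111.5 and 64.3 to 71.1. Of the red-cell list miR-144-3p was lower without overlap, at 6.46 to 7.76 and 10.9 to 14.6 CPM, with list sums of 227.5 to 323 and 252.8 to 297. The level of miR-10b-5p was 127.6 to 174.5 and 30.6 to 134 CPM, and the part of these markers was not tested. Fitted on these 6 libraries alone, miR-1b had an adjusted p of 0.048 by edgeR at a log2 fold change of 0.32, in a fit whose prior degrees of freedom were infinite.

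Between the nuclei, miR-133a-3p was lower in the PVN, alone among the members in passing the adjusted threshold. The test used the 12 HT + EA and HT + SEA libraries with treatment as a covariate, and miR-133a-3p was at 5.18 to 7.49 CPM in the 6 PVN libraries and 7.01 to 12.3 in the 6 CEA libraries, with 1 PVN library, HT + EA replicate 3, above the lowest CEA library. Its log2 difference, PVN against CEA, was -0.56 (SE 0.152, adjusted p = 0.00315 in edgeR's test), and it passed the adjusted threshold in 12 of 12 leave-one-out fits. For miR-133b-3p the difference was -0.75 (SE 0.319, adjusted p = 0.0704), and for miR-206-3p -0.58 (SE 0.246, adjusted p = 0.106). Those of miR-1b, -0.23 (SE 0.211, adjusted p = 0.485), and miR-1-3p, -0.21 (SE 0.196, adjusted p = 0.473), passed no threshold.

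Thus 1 of 5 members passed the adjusted threshold, where 31.9% of the 1058 miRNAs tested did and 16.7% did with the PVN lower, and 3 passed the unadjusted one, where 39.2% and 19.9% did. The nuclei differed for many miRNAs, and with 5 members nothing is read from these shares. All 5 members overlapped between the nuclei, whereas 20.6% of all miRNAs did not.

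The difference of miR-133a-3p was smaller when NC and HT were included. Over all 24 libraries, given as a description because they include PVN NC and HT, it was -0.29. In that fit miR-206-3p differed by -0.18, miR-133b-3p by -0.51, miR-1b by -0.05 and miR-1-3p by 0.06. For miR-133a-3p, PVN NC was at 11.8 ± 3.39 CPM (SD, n = 3) with CEA NC at 8.76 ± 2.74. PVN HT was at 7.88 ± 2.5 CPM with CEA HT at 9.8 ± 3.91, and each pair of groups overlapped. Whether the difference varies with treatment was not tested. In the 12 libraries DESeq2 gave miR-206-3p an adjusted p of 0.0173. With each same-numbered pair of libraries as a block, an alternative chosen after seeing the data, edgeR gave miR-206-3p an adjusted p of 2.24e-05 (log2 difference -0.54) and miR-133b-3p 0.0655 (-0.75), in a fit with infinite prior degrees of freedom.

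Of the other striated-muscle miRNAs, 2 of 7 passed the adjusted threshold between the nuclei, both higher in the PVN, where 15.2% of all miRNAs passed it with the PVN higher. These were miR-499-5p, with a log2 difference of 0.46 (SE 0.0881, adjusted p = 4.23e-05), and miR-486, with 0.66 (SE 0.129, adjusted p = 0.000383). Of the remaining 5, all of low level, miR-499-3p was at 1.96 (SE 0.873), and miR-133a-5p, miR-208a-3p, miR-208a-5p and miR-208b-3p lay between -0.85 and -0.10, so that the median of the 7 was -0.10. In the 5 treatment contrasts that were tested, 0 of the 7 passed the adjusted and 0 the unadjusted threshold. Sums of marker lists moved with the nuclei too, and their part in the differences was not tested. The vessel list (miR-126a-3p, miR-126a-5p, miR-143-3p and miR-145-5p, 4 of 4, none at 0) summed to 28018 to 33344 CPM in the PVN and 34889 to 40087 in the CEA, and the neuronal list to 102997 to 116875 and 137892 to 162609.

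**Figure D3:**
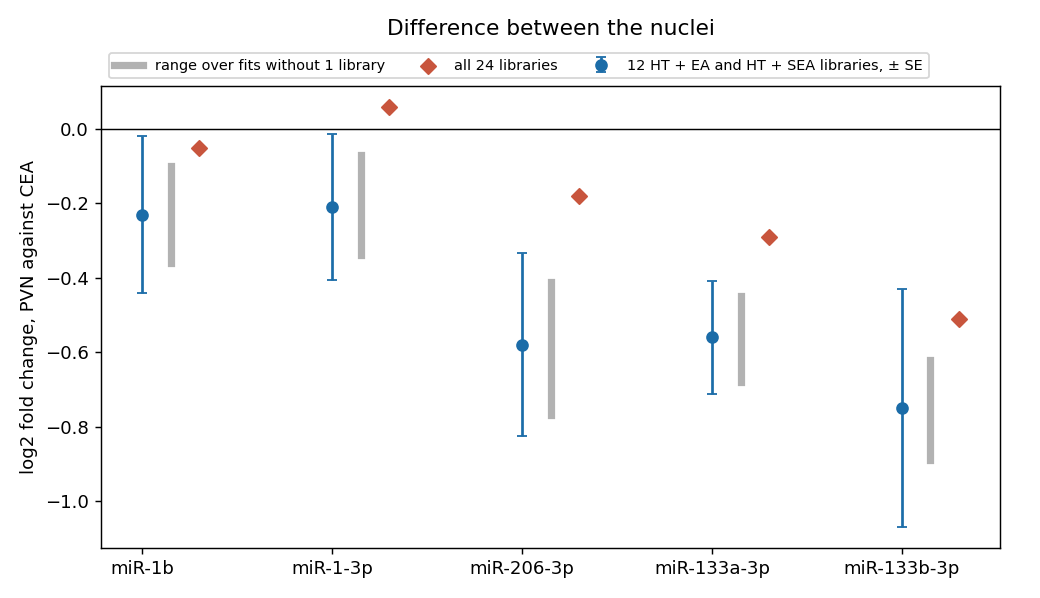
Log2 fold change of PVN against CEA for the 5 miRNAs, with circles and SE for the 12 HT + EA and HT + SEA libraries, grey bars for the range over fits without 1 library, and diamonds for all 24 libraries. Each circle lies below 0, miR-133a-3p at -0.56, and each diamond lies above its circle, miR-133a-3p at -0.29 and miR-1-3p at 0.06.

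Ordered by group mean, miR-1b was highest in PVN NC (472 ± 146 CPM, SD, n = 3) and CEA NC (342 ± 63.9) and lowest in PVN HT (241 ± 31.8), and miR-206-3p was highest in PVN NC (49.9 ± 35.8) and lowest in PVN HT (11.6 ± 3.71). For miR-133a-3p the order ran from PVN NC (11.8 ± 3.39) to PVN HT + SEA (5.55 ± 0.359), for miR-1-3p from PVN HT (4.89 ± 2.82) to PVN HT + SEA (2.79 ± 0.377), and for miR-133b-3p from CEA HT (1.30 ± 0.553) to PVN HT + SEA (0.646 ± 0.172). Neighbours in each order overlapped, except PVN HT + EA and PVN HT + SEA for miR-133a-3p.

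Across the 24 libraries the members varied together to different degrees, and the correlations below are descriptions over libraries that share groups and scaling. Spearman's rho was 0.72 for miR-1b with miR-206-3p and 0.72 for miR-133a-3p with miR-133b-3p, and 0.67 for miR-133a-3p with miR-1b and with miR-206-3p, which have another seed. Of the other pairs with a shared seed, miR-1-3p and miR-206-3p had 0.52 and miR-1b and miR-1-3p had 0.39. The neighbours miR-206-3p and miR-133b-3p had 0.44, and the neighbours miR-1-3p and miR-133a-3p had 0.39. After subtraction of the group means, miR-1b and miR-133a-3p had 0.74, miR-133a-3p and miR-133b-3p 0.68, and the remaining 8 pairs 0.10 to 0.47.

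Among 532 miRNAs with a mean of at least 10 counts, other than the members, the 3 most like miR-206-3p were miR-143-5p (rho 0.63), miR-203b-5p (0.55) and miR-10b-5p (0.55). Those most like miR-133a-3p were miR-874-5p (0.71), miR-31b (0.67) and miR-10b-5p (0.58), and those most like miR-1-3p were miR-6325 (0.64), miR-99a-3p (0.50) and miR-384-5p (0.47). For miR-1b, looked up after its values were seen, they were miR-10b-5p (0.77), miR-223-3p (0.69) and miR-203b-5p (0.65). The lowest library of miR-1b, CEA HT + SEA replicate 2 at 186 CPM, was also the lowest of miR-10b-5p at 11.4 CPM, and the highest of both was PVN NC replicate 1, at 629.5 and 343 CPM. After subtraction of the group means, rho of miR-206-3p with its 3 miRNAs was 0.27, 0.19 and 0.22 in the order above. That of miR-1b was 0.72 with miR-10b-5p, 0.31 with miR-223-3p and 0.70 with miR-203b-5p, that of miR-133a-3p 0.54 to 0.80, and that of miR-1-3p 0.58 to 0.68.

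**Figure D4:**
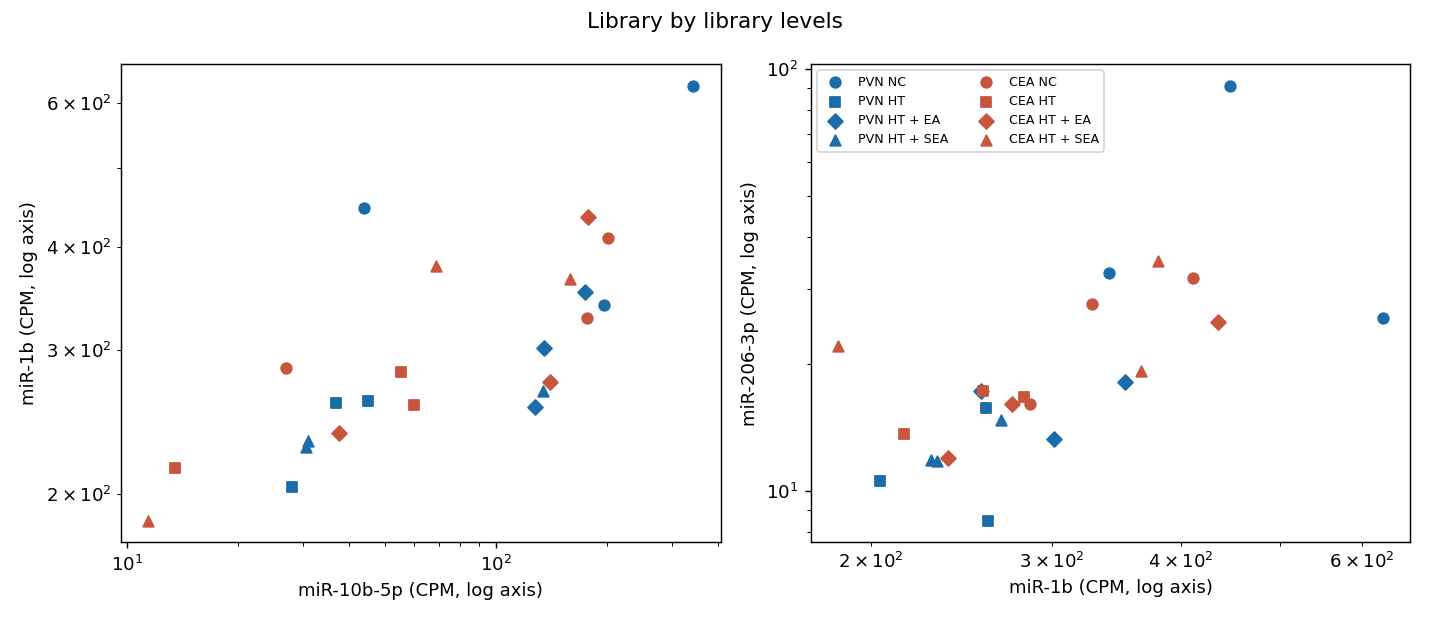
Level of miR-1b against miR-10b-5p (left) and of miR-206-3p against miR-1b (right) in the 24 libraries, in CPM on log axes, with colours for nuclei and symbols for treatments. Libraries high in miR-10b-5p are mostly high in miR-1b (rho 0.77), and PVN NC replicate 2 lies apart in the right panel at 91.0 CPM of miR-206-3p.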

How the data were processed

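Small RNA was sequenced for the authors by the company Novo Gene Biotech from 24 libraries of PVN and CEA tissue, with a NEBNext small RNA kit. The deposited values are raw counts of reads on 703 known and 395 predicted miRNAs, not normalized, made by the authors after filtering for adapters and base quality. The submitters' processing notes name HISAT2, featureCounts and the human build GRCh38/hg38, whereas the paper names a rat genome, and the counting of miRNAs and the treatment of reads that match several are not given in the sources used here. A further 24 columns of per-sample values were not used.

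Libraries were grouped by nucleus and treatment in their labels, 3 per group. Counts were fitted with edgeR 4.0.16 (TMM, glmQLFit with robust = TRUE, glmQLFTest; limma 3.58.1, R 4.3.3) over miRNAs with at least 1 count, on the 12 libraries of a nucleus with 1 mean per group. A fit of 6 libraries was not used as the main one because its prior degrees of freedom, 478 for HT against NC in the PVN, far exceeded the 4 from the libraries. In the fits used, the median prior degrees of freedom were 65.1 (PVN) and 46.1 (CEA) beside 8 from the libraries, and 31 beside 9 for PVN against CEA, 31 being also the value of miR-133a-3p. PVN against CEA used the 12 HT + EA and HT + SEA libraries with treatment as a covariate. The threshold was 0.05 on p adjusted over all miRNAs (Benjamini-Hochberg), with the unadjusted 0.05 of the paper beside it. Standard errors are the log2 fold change over the square root of F. Correlations used log2(CPM + 0.5). A count of 3 equals 0.456 CPM in the smallest library, and limits of this kind cover counting error only.

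The miRNAs named are the 5 members, their antisense copies, other striated-muscle miRNAs, marker miRNAs beside a result, and for miR-206-3p, miR-133a-3p and miR-1-3p the 3 miRNAs most alike, with those of miR-1b added after its values were seen. Members and lists were chosen with earlier results of these data known. Alternatives were DESeq2 1.42.0, other scalings and filters, robust = FALSE, other sets of libraries, the replicate number as a block, and leaving out each library. Deviations from group means correlated at 0.28, 0.235 and 0.41 in the same-numbered pairs of CEA NC and HT, so the blocked values of that contrast stand beside it. The fits were tested on simulated data. Tables and figures used Python 3.11.15, numpy 2.4.6, pandas 2.3.3, scipy 1.17.1 and matplotlib 3.10.9.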

Additional observations from a re-analysis of the deposited data

Results flagged for a closer look

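For HT + EA against HT + SEA, miR-206-3p went in opposite directions in the nuclei, since every PVN HT + EA library was above the mean of PVN HT + SEA and every CEA HT + EA library was below the mean of CEA HT + SEA. The log2 fold changes were 0.32 in the PVN (SE 0.461) and -0.55 in the CEA (SE 0.274). The interaction of nucleus and treatment, chosen after the data were seen and fitted on the 12 libraries, was 0.84 (SE 0.391, adjusted p = 1.0 in edgeR's quasi-likelihood test), so that the difference between the nuclei passed neither threshold.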

How the results depend on the processing

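Of 215 values of members in tested contrasts under alternatives other than leaving out a library, 205 kept their direction and their side of the adjusted threshold. Under DESeq2, 9, 26 and 4 miRNAs passed the unadjusted threshold for CEA HT against NC, HT + EA against HT and HT + EA against HT + SEA, and 2 members the adjusted one for PVN against CEA. After filterByExpr the unadjusted counts were 9, 27, 16 (HT + SEA against HT) and 5, the adjusted count of PVN HT + EA against HT + SEA was 0, and 3 members passed for PVN against CEA, miR-206-3p turning to -0.01 for CEA HT + EA against HT. With robust = FALSE, 2 miRNAs passed for PVN HT + EA against HT + SEA and 2 members for PVN against CEA. With all 24 libraries, PVN NC and HT included, no member (0) passed for PVN against CEA, and miR-1-3p turned to 0.06. On the 6 libraries alone, 1 miRNA passed the adjusted threshold for CEA HT against NC, 3 for HT + SEA against HT and 18 for PVN HT + EA against HT + SEA, 1 of them a member, miR-1b, with 25 (CEA) and 69 (PVN) unadjusted for HT + EA against HT + SEA. The cause was not tested. Scaling by library totals moved the median of all miRNAs by 0.12 for CEA HT + EA against HT.

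Outside CEA HT against NC, where all 3 same-numbered pairs deviated together, no tested contrast had every such pair correlated over 0.1, and whether the numbers mark shared animals or days is not given. The mean correlation was 0.115 in the CEA (11 of 18 pairs over 0.1), 0.066 in the PVN (7 of 18) and 0.208 between the nuclei (8 of 12). With the replicate number as a block, 6, 14, 19 and 1 miRNAs passed the adjusted threshold in the CEA contrasts in the order HT against NC, HT + EA against HT, HT + SEA against HT (58 unadjusted) and HT + EA against HT + SEA, and 12 for PVN HT + EA against HT + SEA. The block put miR-206-3p at -0.04 for CEA HT + EA against HT, and with it miR-206-3p passed the unadjusted threshold for CEA HT + EA against HT + SEA and miR-1b for the same contrast of the PVN, while the adjusted calls of members did not change. For PVN against CEA, where 5 of 6 pairs were over 0.1, a block of each same-numbered pair, chosen after seeing the data, gave 2 members at the adjusted threshold, miR-133a-3p and miR-206-3p. In the blocked fits of each nucleus, in that of the pairs and in most fits of 6 libraries the prior degrees of freedom were infinite, so that single miRNAs were given the common spread.

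Over the fits that left out 1 library, the adjusted counts ran from 0 to 1 for CEA HT against NC, 0 to 2 for HT + EA against HT, likewise 0 to 2 for HT + SEA against HT, and 0 to 14 in the PVN for HT + EA against HT + SEA, and the unadjusted ones from 17 to 48 for CEA HT against NC, from 18 to 56 for HT + SEA against HT, and from 10 to 25 for HT + EA against HT + SEA. Between 1 and 3 members passed for PVN against CEA, 3 without CEA HT + EA replicate 1. In the tested contrasts the sign of 12 values turned in at least 1 such fit, all in the CEA, beside miR-1b at 0.00 for HT + EA against HT + SEA, which ran from -0.31 to 0.14, and the turns in the PVN contrasts given without a test stand beside those values. For CEA HT against NC, miR-133a-3p ran from -0.04 to 0.45 and miR-133b-3p from -0.17 to 0.37. For HT + EA against HT, miR-1b ran from -0.12 to 0.35, miR-1-3p from -0.14 to 0.29, miR-206-3p from -0.33 to 0.23 and miR-133a-3p from -0.51 to 0.06. For HT + SEA against HT, miR-1-3p ran from -0.08 to 0.35, miR-133a-3p from -0.41 to 0.10 and miR-133b-3p from -0.42 to 0.15, and for HT + EA against HT + SEA they ran from -0.34 to 0.22, from -0.32 to 0.11 and from -0.34 to 0.07. Depth limits miR-133b-3p most, at 4 to 25 counts per library.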
